A study of Mus musculus with 278 samples.

Results

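Cadherins and the transcription factors that regulate the epithelial-to-mesenchymal transition (EMT) were examined in single cells of cultured mouse epidermis. The 10 genes were chosen by name: the cadherins Cdh1, Cdh2, Cdh3 and Cdh11, the intermediate filament gene Vim and the EMT regulators Snai1, Snai2, Twist1, Zeb1 and Zeb2. All 10 are among the 14145 genes of the deposited table, and all 10 are among the 12355 genes that exceeded 1 TPM (transcripts per 1000000, a level that allows for gene length) in more than 5 cells. They were read in 270 labelled cells, by library series and by treatment label, to describe which of them occurred in the same cell and which did not.

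Cells came from co-cultures of keratinocytes from adult dorsal skin, in which WT cells outnumbered K14ΔNβ-cateninER cells by 9 to 1. In K14ΔNβ-cateninER cells the keratin 14 promoter drives an N-terminally truncated beta-catenin joined to a hormone-binding receptor domain, so the transgene is limited to cells that use this promoter. Untreated co-cultures received DMSO, and treated co-cultures received 200 nM 4-hydroxy-tamoxifen (4OHT), which activates the fusion protein, for 24 h. The library names fall into 2 series, called AG and GHA501A here, each with untreated and treated cells: 66 and 64 cells of AG and 71 and 69 cells of GHA501A. These 4 library sets were taken as the replicates, 2 for each treatment and 2 for each series. Another 8 AG cells were left out of the values below because library name and treatment label disagreed. The study identified transgenic cells by reads on the transgene, but the labels used here do not mark them, so whether any are among the 270 cells was not tested. TPM values of every cell sum to the same total, so the sequencing depth behind a value is unknown. The median number of genes over 1 TPM per cell lay between 6008 and 6392 in the 4 sets.

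In stratified epithelia, classical cadherins hold neighbouring cells together at adherens junctions: their extracellular domains bind cadherins of the next cell, and their cytoplasmic tails bind catenins that link them to actin. E-cadherin, encoded by Cdh1, is the main cadherin of epithelia. During EMT its transcription is repressed, chiefly by zinc-finger factors of the SNAI and ZEB families that bind E-box elements, while N-cadherin and vimentin are commonly gained. Basal keratinocytes are known to keep Snai2 while remaining epithelial, and cultured keratinocytes can express vimentin.

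The labels call every cell a keratinocyte, and this was checked against markers. Cells were placed into 4 classes by the TPM of Krt14, the basal keratin, and Col1a1, a chain of the fibroblast collagen type I, neither of which is among the 10 genes. Krt14-high cells had at least 100 TPM of Krt14 and under 100 TPM of Col1a1, Col1a1-high cells the reverse, double-high cells at least 100 TPM of both and double-low cells of neither. Such a class is a range of levels and not a cell type. In AG, 64 of 66 untreated and 59 of 64 treated cells were Krt14-high and 0 cells were Col1a1-high. In GHA501A, 8 of 71 untreated and 10 of 69 treated cells were Krt14-high, 60 and 49 were Col1a1-high, and 2 and 10 were double-high. The median level of Krt14 per cell was 4864 and 4997 TPM in the untreated and treated AG sets and 2.25 and 10.1 TPM in those of GHA501A. The label of a keratinocyte is thus not matched by the level of Krt14 in most GHA501A cells. Between 5 and 8 cells of a set lay within 2-fold of a class limit.

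Of the 12 keratinocyte markers listed for this check, 11 were in the table, and their summed mean level was 10217 and 10838 TPM in the untreated and treated AG sets against 593 and 1760 TPM in GHA501A. Of the 12 fibroblast markers 7 were in the table, with sums of 91.3 and 51.5 TPM in AG against 3023 and 3510 TPM in GHA501A. The sums for 4 melanocyte markers were 76.3 and 50.1 TPM in AG and at most 38.7 TPM in GHA501A. In the order AG untreated, AG treated, GHA501A untreated and GHA501A treated they were 0.089, 0.456, 0.061 and 0 TPM for 3 endothelial markers, 35.2, 21.7, 22.2 and 34.7 TPM for 5 Schwann and muscle markers, and 60.9, 24.9, 5.44 and 8.24 TPM for 4 Merkel cell markers. Of 6 immune markers only Lyz2 was in the table, at 147, 98.3, 388 and 1079 TPM. The fibroblast and keratinocyte lists therefore move with the series, and the values of the 10 genes are given within a class beside those of whole sets.

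Snai1 and Twist1, regulators that were both commoner in Col1a1-high than in Krt14-high cells, are shown by the 250 bases before their RefSeq start in GRCm38.p6, where an E-box of the repressors can be looked for. RefSeq windows were matched for 4 of the 10 genes, Vim, Snai1, Twist1 and Zeb2. They were searched on both strands for CAGGTG and its reverse complement CACCTG, the E-box that SNAI and ZEB factors are known to bind, which is marked in capitals. Snai1 (chr2:167537945-167538194, plus strand) held 1 match and the windows of the other 3 genes 0, and 17.2% of 32851 promoter windows of the same length hold at least 1.
Snai1: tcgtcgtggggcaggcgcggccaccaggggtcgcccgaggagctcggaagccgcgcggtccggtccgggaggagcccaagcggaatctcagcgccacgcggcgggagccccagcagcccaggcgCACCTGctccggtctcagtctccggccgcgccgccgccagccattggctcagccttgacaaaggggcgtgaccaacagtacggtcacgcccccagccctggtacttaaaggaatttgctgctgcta
Twist1: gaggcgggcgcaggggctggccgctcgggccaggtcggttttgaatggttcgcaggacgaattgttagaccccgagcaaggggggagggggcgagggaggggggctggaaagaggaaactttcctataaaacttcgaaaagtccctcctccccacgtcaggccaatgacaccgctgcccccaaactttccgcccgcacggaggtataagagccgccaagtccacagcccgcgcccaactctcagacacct
A match of these letters is a description of the window, and no match says only that the letters do not occur in it (chr12:33957421-33957670, plus strand, for Twist1).

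Cdh1 (chromosome 8 of GRCm38, 106603351 to 106670246, plus strand, protein coding like the other 9 genes) marked the Krt14-high cells of both series. Its level ranged over cells from 0 to 1800 TPM with a median of 228 TPM in untreated AG cells and from 0 to 1524 TPM with a median of 200 TPM in treated AG cells. In GHA501A the median was 0 TPM in both sets, with highest values of 333 TPM in untreated and 450 TPM in treated cells. More than 1 TPM, called detected from here on, was seen in 63 of 66 and 61 of 64 AG cells and in 9 of 71 and 19 of 69 GHA501A cells. Set means were 326 and 266 TPM in AG and 12.6 and 31.8 TPM in GHA501A. The ranges of single cells overlap between the series, but the set means do not, as was so for 9 of the 10 genes and for 69.6% of all genes tested. Within GHA501A, Cdh1 was detected in 17 of 18 Krt14-high cells, at a median of 99.1 TPM, in 5 of 12 double-high cells and in 6 Col1a1-high cells (5.50%). Among those Col1a1-high cells with Cdh1 the level lay between 1.09 and 18.9 TPM.

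Of the other cadherins, Cdh11 was common in AG and the rest were detected in few cells. Cdh3 (chromosome 8, 106510891 to 106557297, plus strand) encodes P-cadherin, which basal epidermal and hair follicle cells use beside E-cadherin, and lies 46053 bases from Cdh1 on the same strand. It was detected in 6 and 5 cells of the untreated and treated AG sets and in 11 and 11 cells of those of GHA501A. By class, Cdh3 was found in 10 of 123 AG Krt14-high cells (8.13%, 95% Wilson interval 4.48 to 14.3%), in 11 of 18 GHA501A Krt14-high cells (61.1%, 38.6 to 79.7%) and in 9 Col1a1-high cells (8.26%). Wilson intervals here cover the counting of cells only, since cells of a set are not replicates. The labels name no culture or chip for a cell. Set means of Cdh3 were 0.605 and 1.26 TPM in AG and 1.27 and 3.36 TPM in GHA501A, and the 4 medians were 0 TPM.

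Cdh11 (chromosome 8, 102632095 to 102785642, minus strand), which encodes the mesenchymal cadherin OB-cadherin, did not follow the fibroblast collagens. It was detected in 56 and 51 cells of the untreated and treated AG sets, at medians over all cells of 4.13 and 3.40 TPM, and in 8 and 4 cells of the GHA501A sets, where both medians were 0 TPM. Of AG Krt14-high cells 82.9% had Cdh11, against 1 of 18 GHA501A Krt14-high cells and 9 Col1a1-high cells (8.26%). In the treated GHA501A Krt14-high cells it was detected in 0 of 10, which allows a share of up to 30% of such cells.

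Cdh2 (chromosome 18, 16588877 to 16809246, minus strand), which encodes N-cadherin, was nearly undetected. It exceeded 1 TPM in 1 untreated and 1 treated AG cell, in 0 of 71 untreated GHA501A cells, which allows a share of up to 4.23%, and in 6 of 69 treated GHA501A cells. Of those 6 cells 5 were Col1a1-high and 1 was double-high, and Cdh1 was detected in 0 of them. A single Col1a1-high cell at 75.6 TPM held 76.9% of the Cdh2 sum of its set. Cells without Cdh1 therefore mostly lacked Cdh2 as well, and 82 Col1a1-high cells (75.2%) had none of the 4 cadherins, against 1 of 123 AG Krt14-high cells and 1 of 18 GHA501A Krt14-high cells.

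Vim (chromosome 2, 13573927 to 13582826, plus strand) encodes vimentin, an intermediate filament protein of mesenchymal cells. It was detected in all 140 GHA501A cells, between 4.07 and 2025 TPM with a median of 950 TPM in untreated cells and between 4.99 and 2828 TPM with a median of 805 TPM in treated cells. In AG it was detected in 53 of 66 untreated cells, with a median of 41.3 TPM, and in 54 of 64 treated cells, with a median of 89.3 TPM. The classes of GHA501A overlapped little: Vim lay between 444 and 2828 TPM in Col1a1-high cells and between 4.07 and 583 TPM in the 18 Krt14-high cells. Vim was thus present in most Krt14-high cells too, and 97 of 123 AG and 17 of 18 GHA501A Krt14-high cells had both Vim and Cdh1.

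**Figure D1:**
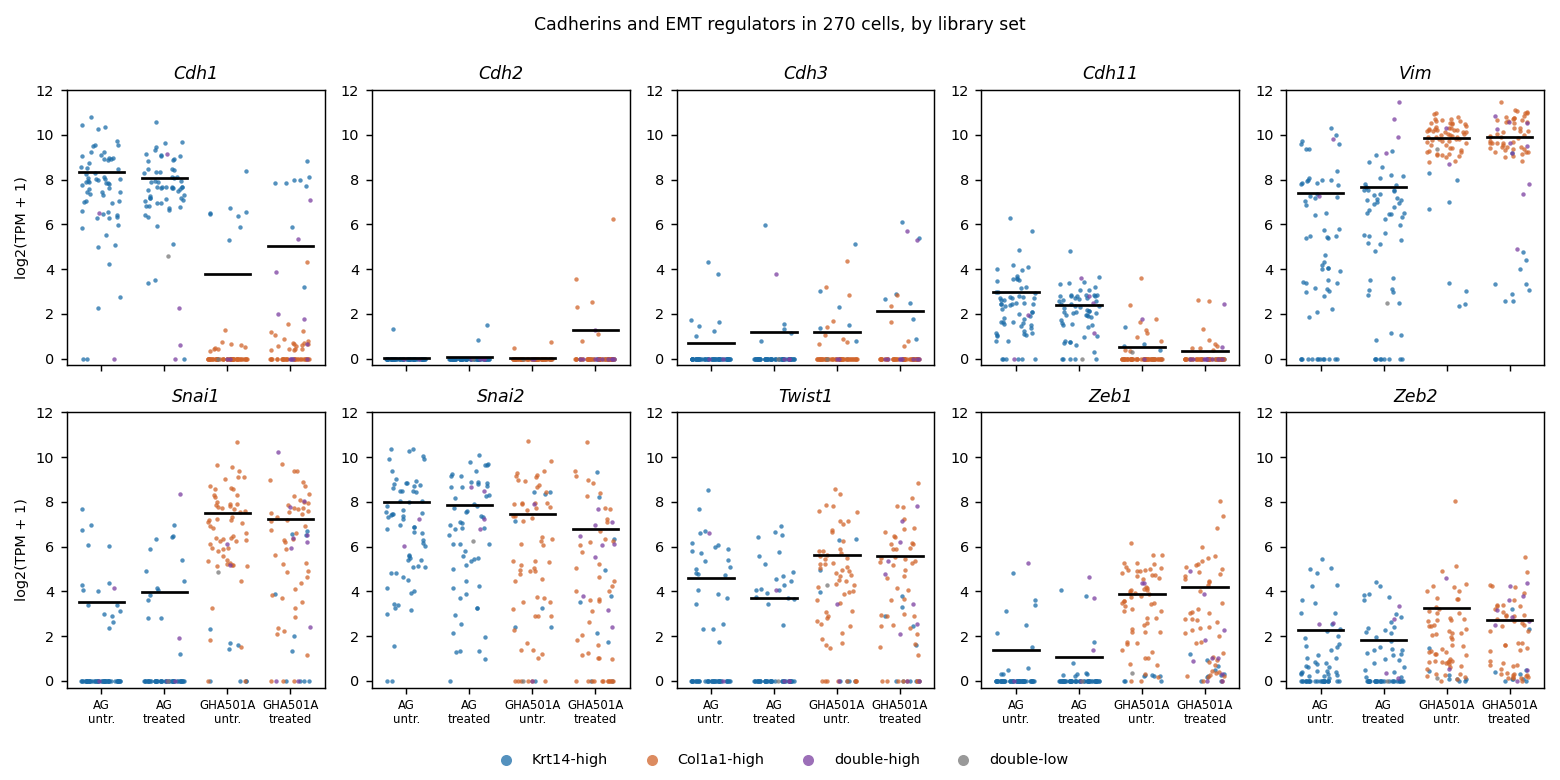
Level of each of the 10 genes in each of 270 cells, as log2(TPM + 1), by library set (x axis), with a point for each cell coloured by class and a black line at the log2(TPM + 1) of the set mean. Cdh1 and Cdh11 sit higher in the AG sets and Vim, Snai1 and Zeb1 in the GHA501A sets, while Snai2 spans a similar range in all 4 sets and Cdh2 lies at 0 in nearly all cells.

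Snai1 (chromosome 2, 167538195 to 167542814, plus strand) encodes Snail, a direct repressor of Cdh1. It was detected in 17 and 17 cells of the untreated and treated AG sets, where the median was 0 TPM in both and the highest values were 202 and 324 TPM. In GHA501A it was detected in 65 and 60 cells, with medians of 82.6 and 77.3 TPM and highest values of 1618 and 1190 TPM. By class the share was 95.4% of Col1a1-high, 55.6% of GHA501A Krt14-high and 25.2% of AG Krt14-high cells. Snai2 (chromosome 16, 14705852 to 14709385, plus strand), which encodes the related factor Slug, showed no such division. It was detected in 64 and 62 AG cells and in 62 and 54 GHA501A cells, with highest values of 1333 and 1080 TPM in AG and 1694 and 1622 TPM in GHA501A. By class it was found in 96.7% of AG Krt14-high, 83.3% of GHA501A Krt14-high and 82.6% of Col1a1-high cells.

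Twist1 (chromosome 12, 33957671 to 33959829, plus strand), a basic helix-loop-helix factor, was detected in 26 and 22 AG cells and in 58 and 54 GHA501A cells, with set means of 22.9 and 12.1 TPM in AG and 47.7 and 46.9 TPM in GHA501A. Zeb1 (chromosome 18, 5591860 to 5775467, plus strand), a zinc-finger repressor of Cdh1, was detected in 8 and 6 AG cells and in 56 and 44 GHA501A cells. Of Col1a1-high cells 91 had Zeb1 (83.5%, Wilson interval 75.4 to 89.3%), against 1 of 18 GHA501A Krt14-high (5.56%, 0.988 to 25.8%) and 10 of 123 AG Krt14-high cells (8.13%, 4.48 to 14.3%). Zeb2 (chromosome 2, 44983632 to 45117395, minus strand), its paralogue, was detected in 24 and 25 AG cells and in 43 and 41 GHA501A cells. Its highest value, 258 TPM in an untreated GHA501A cell, held 43.1% of the Zeb2 sum of that set.

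**Figure D2:**
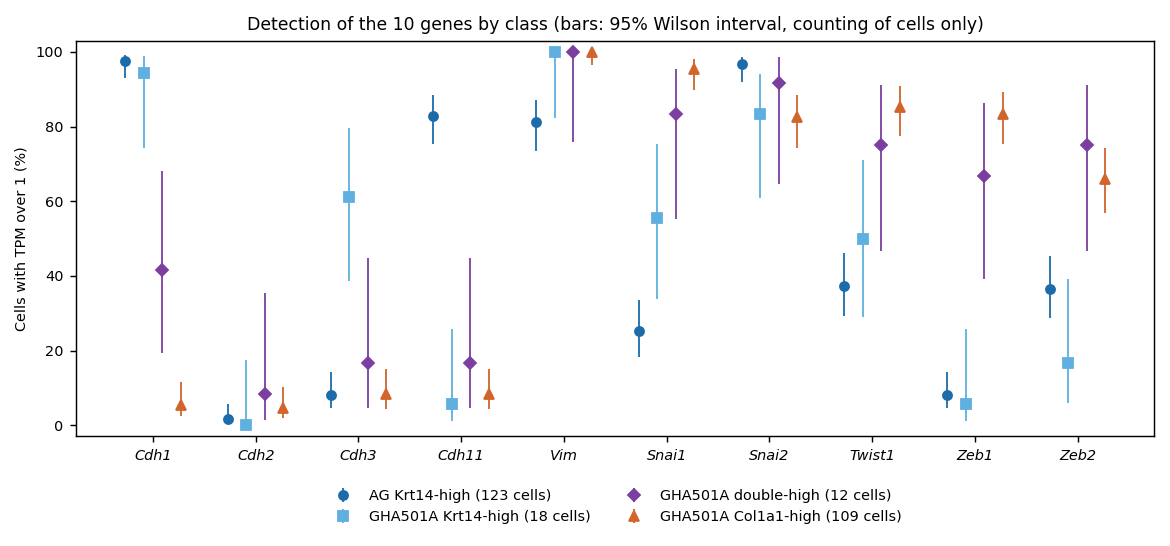
Percentage of cells with more than 1 TPM of each gene (y axis) in AG Krt14-high, GHA501A Krt14-high, GHA501A double-high and GHA501A Col1a1-high cells, with bars for the 95% Wilson interval that covers counting of cells only. Cdh1 separates both Krt14-high classes (97.6% and 94.4%) from Col1a1-high cells (5.50%), Zeb1 shows the opposite order, and Cdh11 separates AG Krt14-high cells (82.9%) from the rest.

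To compare the series over library sets, log2(mean TPM + 1) of each set was fitted with limma for all 12355 genes, with the treatment label as a block, and called at an adjusted p under 0.05 and an absolute change over 0.5. A set mean cannot tell a share of cells from a level per cell. Of the 10 genes 5 were called, where 29% of all genes tested were called, 10.8% higher in AG and 18.2% lower. Cdh1 was higher in AG by 3.81 ± 0.49 (SE) on the log2 scale (adjusted p = 0.00715) and Cdh11 by 2.24 ± 0.34 (adjusted p = 0.0114). Snai1 was lower in AG, with a log2 difference of -3.61 ± 0.36 (adjusted p = 0.00371), as were Zeb1 with -2.82 ± 0.35 (adjusted p = 0.00663) and Vim with -2.37 ± 0.33 (adjusted p = 0.00882). Twist1 with -1.45 ± 0.38 (adjusted p = 0.0522), Zeb2 with -0.94 ± 0.33, Snai2 with 0.78 ± 0.35, Cdh3 with -0.72 ± 0.34 and Cdh2 with -0.60 ± 0.44 were not called. Without the untreated AG set only Snai1 was called, and without the treated AG set Cdh11, Vim and Snai1, whereas leaving out either GHA501A set left Cdh1, Vim, Snai1 and Zeb1. When log2(TPM + 1) was averaged over cells instead, 8 of the 10 genes were called, and all genes called split into 2889 higher and 2650 lower against 1333 and 2247, with the median of all genes at 0.11 and not -0.01.

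The class make-up moves with the series, as given above, and so does the listing of some genes. Ctnnb1, whose product beta-catenin binds the tail of E-cadherin, exceeded 1 TPM in 0 of 130 AG cells, with a highest value of 0.419 TPM, and in 99.3% of GHA501A cells. Ctnnd1, which encodes p120-catenin, exceeded 1 TPM in 0 AG and 39 GHA501A cells. In contrast Ctnna1, which encodes alpha-catenin, was detected in all 130 AG cells, between 18.4 and 4240 TPM. In all, 98 genes exceeded 1 TPM in no AG cell and in at least 50% of GHA501A cells, and 44 genes the reverse, with 0 of the 10 genes among either. Whether the values of the series were made in the same way, and what part of the differences this accounts for, was not tested.

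The classes were then compared within GHA501A, where both come from the same 2 library sets, with the library set as a block. Cdh1 was 6.80 ± 0.25 higher on the log2 scale in Krt14-high than in Col1a1-high cells, with 6.69 among untreated and 6.91 among treated cells. Cdh3 differed by 2.76 ± 0.53, with 2.07 and 3.44 in the sets. The mesenchymal side had negative differences: -3.72 ± 0.34 for Vim, -4.01 ± 0.25 for Zeb1, -4.46 ± 1.46 for Snai1, -2.35 ± 0.93 for Twist1 and -2.27 ± 0.56 for Zeb2. Snai1 was the least even of these, with -6.55 among untreated and -2.36 among treated cells. Snai2 with -0.23 ± 0.25, Cdh11 with -0.20 ± 0.27 and Cdh2 with -0.80 ± 0.58 were smaller. None of the 10 genes was called, with adjusted p = 0.323 for Cdh1, Vim and Zeb1, 0.344 for Cdh3 and up to 0.763 for the others, and none of all 12355 genes was (0%), although 1676 genes (13.6%) and 4 of the 10 had an unadjusted p under 0.05 by limma. All 10 had the same sign in both sets, which held for 57.8% of all genes tested, and this comparison has 2 sets with 8 and 10 Krt14-high cells.

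When the series were compared among Krt14-high cells, the difference in Cdh1 was 1.04 ± 0.56 and that in Vim 0.67 ± 0.49 on the log2 scale. Of the 10 genes 0 were called (2 at an unadjusted p under 0.05, against 27.7% of all genes), where 10.2% of all genes were (3.21% higher and 7.03% lower in AG), and the median over all genes was 0.24, so that differences are read against that shift. Cdh11 with 2.45 ± 0.49 (adjusted p = 0.0617) and Cdh3 with -2.41 ± 0.51 (adjusted p = 0.0680) came nearest to the threshold. Cdh11 passed it with a pseudocount of 0.1 (4.65, adjusted p = 0.0413), without the block (adjusted p = 0.0351) and, like Cdh3, with genes kept in at least 10% of cells (adjusted p = 0.0425 and 0.0470). Fits that left out 1 GHA501A set also left out the block, so the part of each cannot be told apart. Without the untreated GHA501A set Cdh3 was at -2.90. Snai1 was 0.44 ± 1.08 with both sets, 2.34 without the treated set and -1.47 without the untreated set. With log2 values averaged over cells Snai1 was -0.65. Leaving out either AG set, a class limit of 30 TPM, or no filter on genes, left 0 genes called of all tested by limma (2602 to 3423 at an unadjusted p under 0.05). The catenins above differ between the series in this class as well, with Ctnnb1 lower by 6.49 ± 0.54 on the log2 scale in AG (adjusted p = 0.0244), and the part of this in the members' differences was not tested.

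**Figure D3:**
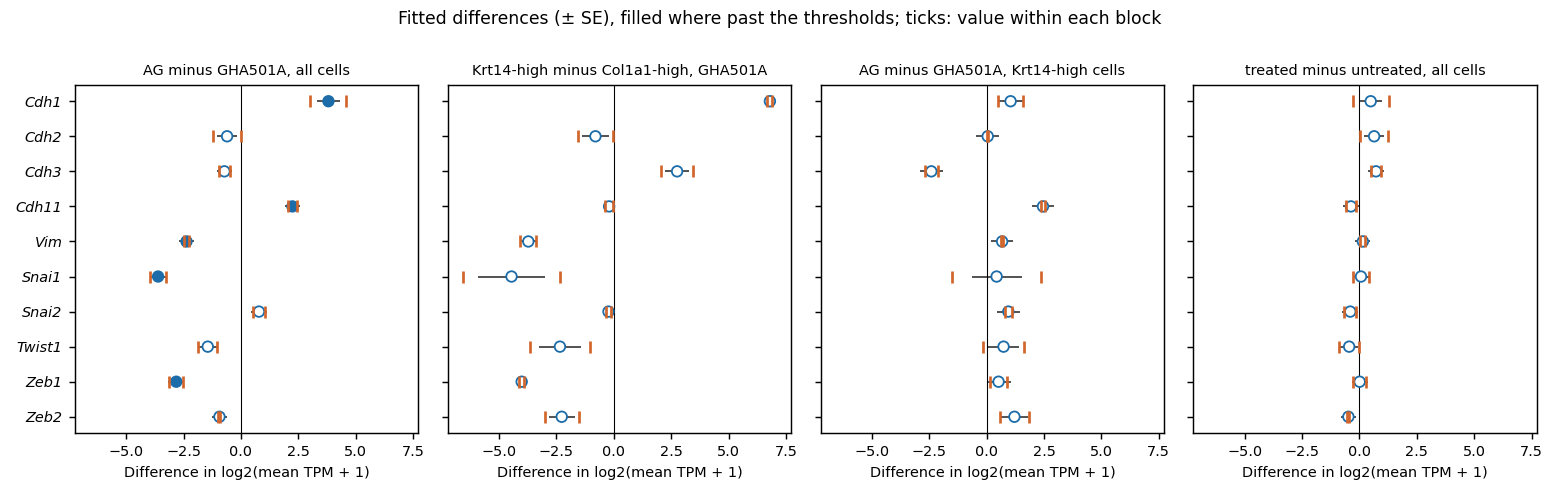
Fitted difference in log2(mean TPM + 1) of each gene with its SE (bars) for 4 comparisons, filled where the gene passed the thresholds, with orange ticks for the value within each block (treatment, set or series). Filled points occur in the comparison of the series over all cells only, where Cdh1 is at 3.81 and Snai1 at -3.61, and the within-block values of treated minus untreated cells lie on both sides of 0 for Cdh1.

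Cells of treated co-cultures, in which K14ΔNβ-cateninER cells were activated, were compared with cells of untreated ones to ask whether their neighbours alter these genes. No change was detected in any of the 10 genes with the series as a block, and none of 12355 genes was called by limma (0%, with 459 genes or 3.72%, and 0 of the 10, at an unadjusted p under 0.05). The differences furthest from 0 were 0.72 ± 0.34 for Cdh3, 0.64 ± 0.44 for Cdh2, 0.49 ± 0.49 for Cdh1, -0.48 ± 0.33 for Zeb2, -0.45 ± 0.38 for Twist1 and -0.40 ± 0.35 for Snai2. Cdh1 was -0.29 in AG and 1.28 in GHA501A. The treated GHA501A set also held 10 double-high cells against 2 in the untreated set. Col1a1-high cells numbered 49 in the treated and 60 in the untreated GHA501A set. The mean Cdh1 of GHA501A double-high cells was 16.4 TPM, against 0.336 TPM in Col1a1-high cells. The mean of the whole set was 12.6 TPM in untreated and 31.8 TPM in treated GHA501A cells. What part the make-up of classes had in the difference of Cdh1 was not tested. Vim with 0.15 ± 0.33, Snai1 with 0.07 ± 0.36, Zeb1 with 0.01 ± 0.35 and Cdh11 with -0.37 ± 0.34 lay nearer to 0. Of the 10 genes 7 had the same sign in both series, against 47.3% of all genes tested.

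Among Krt14-high cells alone the comparison of treatments again gave 0 calls in 12355 genes (0%, with 247 genes or 2%, and 0 of the 10, at an unadjusted p under 0.05). Snai1 had the largest difference of the 10 genes, 1.87 ± 1.08, but it was -0.07 in AG and 3.81 in GHA501A, where the means rest on 8 untreated and 10 treated cells. Twist1 was -1.65 ± 0.67, with -0.74 in AG and -2.56 in GHA501A. Cdh1 was 0.28 ± 0.56, Cdh3 0.69 ± 0.51, Vim -0.50 ± 0.49, Cdh11 -0.54 ± 0.49, Snai2 -0.31 ± 0.50, Zeb2 0.20 ± 0.59, Zeb1 -0.03 ± 0.52 and Cdh2 0.01 ± 0.49. Of the 10 genes 5 had the same sign in both series, against 42.6% of all genes tested.

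Mutual exclusion and co-expression were then described cell by cell. For each of the 45 pairs the cells with both genes detected were set against the number that the product of the separate shares would give, as a log2 ratio with 0.5 added to each, in every set where both genes were detected in at least 5 cells. Of the 28 pairs that could be read in all 4 sets, 3 lay below the product in every set: Cdh1 with Snai1, Cdh1 with Zeb1 and Cdh3 with Zeb1. Another 6 lay above it in every set, namely Cdh1 with Cdh3, Cdh3 with Snai2, Snai1 with Zeb1, Snai2 with Zeb1, Twist1 with Zeb2 and Zeb1 with Zeb2, and 19 were mixed or equal. Some of these lay barely above it. Snai2 with Zeb1 had ratios between 0.003 and 0.042, with 49 untreated GHA501A cells against a product of 48.9. In AG, where nearly all cells had Cdh1 and Snai2, Cdh3 was at 0.04 with Snai2 and at 0.06 with Cdh1 in both sets. The pairs below the product were thin in AG as well. Cdh1 with Snai1 was at -0.11 in untreated and -0.018 in treated AG cells, the latter with 16 cells against a product of 16.2. Cdh3 with Zeb1 was in 0 cells of both AG sets, against products of 0.727 and 0.469, too low to show exclusion. Pairs of other genes were not counted, so these counts of pairs have no background share. No p is given for these counts, since cells of a set are not replicates.

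Cdh1 was not strictly exclusive with Zeb1 or Snai1 in any set. Cdh1 and Zeb1 were both detected in 6 of 66 untreated AG cells (product 7.64), 4 of 64 treated AG cells (5.72), 1 of 71 untreated GHA501A cells (7.10) and 10 of 69 treated GHA501A cells (12.1). The untreated GHA501A set was the lowest, with a log2 ratio of -2.34, against -0.26 to -0.47 in the other sets. For Cdh1 and Snai1 the counts were 15, 16, 5 and 13 cells in the same order, against products of 16.2, 16.2, 8.24 and 16.5. Of the 11 GHA501A cells with both Cdh1 and Zeb1, 6 were Col1a1-high, 4 double-high and 1 Krt14-high, with a median Cdh1 of 2.43 TPM, whereas 16 of the 17 cells with Cdh1 and without Zeb1 were Krt14-high, with a median of 92.5 TPM.

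The GHA501A sets mix classes that differ in these genes, so the pairs were also read within Krt14-high cells. Cdh1 and Snai1 lay below the product in 2 and above it in 1 of the 3 Krt14-high sets in which they could be read, with log2 ratios between -0.10 and 0.02, and Cdh1 with Zeb1 was at under 5 detected cells in 3 of the 4. Twist1 with Zeb2 lay above the product in both AG Krt14-high sets, at 0.57 in untreated and 0.40 in treated cells. In untreated AG Krt14-high cells Cdh1 with Zeb1 was at -0.16 and Cdh3 with Zeb1 at -1.21. The latter is 0 cells against a product of 0.656, and with a product under 1 a count of 0 cannot show exclusion. Within Col1a1-high cells Snai1, Twist1, Zeb1 and Zeb2 were each present in most cells, and the ratios of their 6 pairs stayed between -0.03 and 0.13. The pairs below the product in every whole set lay above it within this class. Cdh1 with Zeb1 was at 0.36 and Cdh1 with Snai1 at 0.08 in treated Col1a1-high cells, and Cdh3 with Zeb1 at 0.14 in untreated ones. Each of these pairs could be read in only 1 Col1a1-high set.

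**Figure D4:**
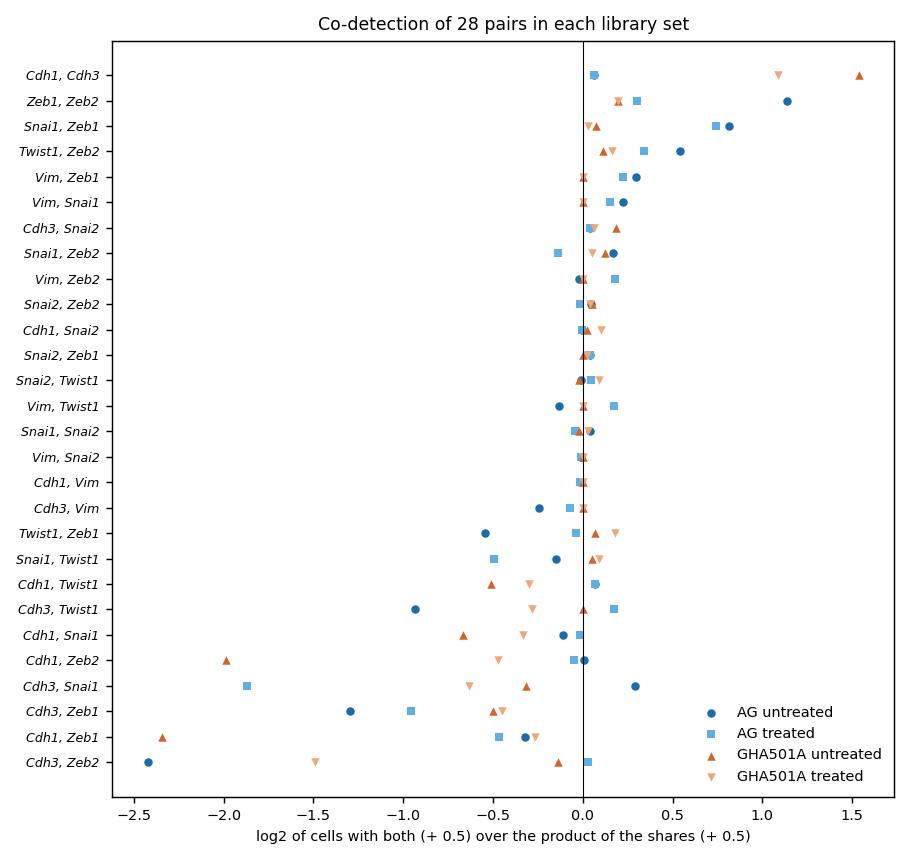
Co-detection of the 28 pairs that could be read in all 4 sets, as the log2 ratio of cells with both genes detected to the product of the separate shares (x axis, 0.5 added to each), with a symbol for each library set. Cdh1 with Zeb1 and Cdh1 with Snai1 lie left of 0 and Cdh1 with Cdh3 and Zeb1 with Zeb2 right of 0 in all 4 sets, with widely spread symbols.

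The few AG cells that lacked Cdh1 carried other members. Of 130 AG cells 6 had no Cdh1 over 1 TPM, of which 3 were Krt14-high and 3 double-high. All 6 had Vim, between 6.89 and 2838 TPM with a median of 875 TPM, and all 6 had Snai2. Zeb1 was detected in 4 of the 6, at 3.34, 12.2, 24.2 and 37.4 TPM, Snai1 in 3, Cdh11 in 5 and Twist1 in 0. The other 10 AG cells with Zeb1 had Cdh1 as well, between 3.83 and 1800 TPM. These groups of cells were picked by their levels and carry no test.

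More of the regulators were detected per cell in Col1a1-high than in Krt14-high cells. Of the 5 regulators, AG Krt14-high cells had 2.04 detected on average, GHA501A Krt14-high cells 2.11, GHA501A double-high cells 3.92 and Col1a1-high cells 4.13. In AG Krt14-high cells 19 of the 32 possible combinations occurred, and the most frequent was Snai2 alone in 39 of 123 cells, followed by Snai2 with Twist1 and Zeb2 in 17 cells and Snai2 with Twist1 in 16. In Col1a1-high cells 15 combinations occurred, and all 5 regulators were detected together in 48 of these cells, and all but Zeb2 in another 18. Snai1 and Zeb1 were detected together in 86 Col1a1-high cells (78.9%), in 4 of 123 AG Krt14-high cells and in 1 of 18 GHA501A Krt14-high cells. At least 3 regulators were found in 39 AG Krt14-high cells (31.7%), nearly all of which also had Cdh1, since only 3 AG Krt14-high cells lacked it.

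Levels per cell were compared by Spearman's rho within each set, as a description without p, since the cells of a set are not replicates. Cdh1 and Vim ran in opposite directions in all 4 sets, with rho of -0.33, -0.14, -0.30 and -0.48 in the order AG untreated, AG treated, GHA501A untreated and GHA501A treated. Within Krt14-high cells rho was still negative in each set, at -0.29, -0.07, -0.26 and -0.45, the last 2 over 8 and 10 cells. Of the AG Krt14-high cells 23 had no Vim, and their median Cdh1 was 379 TPM, against 202 TPM in the 100 cells with Vim. Vim and Snai1 had a positive rho in all 4 sets, with a mean of 0.38, as did Vim and Zeb1 (0.33) and Zeb1 and Zeb2 (0.31). These whole sets mix classes in GHA501A. Within Krt14-high cells the mean for Vim and Snai1 was 0.29 over 3 sets. In the 1 Krt14-high set where they could be read, Vim and Zeb1 were at 0.11 and Zeb1 and Zeb2 at 0.47. Within Col1a1-high cells the means over 2 sets were 0.25, 0.15 and 0.15 for these pairs in the same order. The number of genes detected per cell also moved with these levels, with rho of 0.37 and 0.20 for Vim in the AG sets and -0.44 and -0.15 in the GHA501A sets, and its part in the pairs was not tested. Snai2 was nearly unrelated to Vim, at a mean rho of 0.01, and to Snai1, at -0.04.

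**Figure D5:**
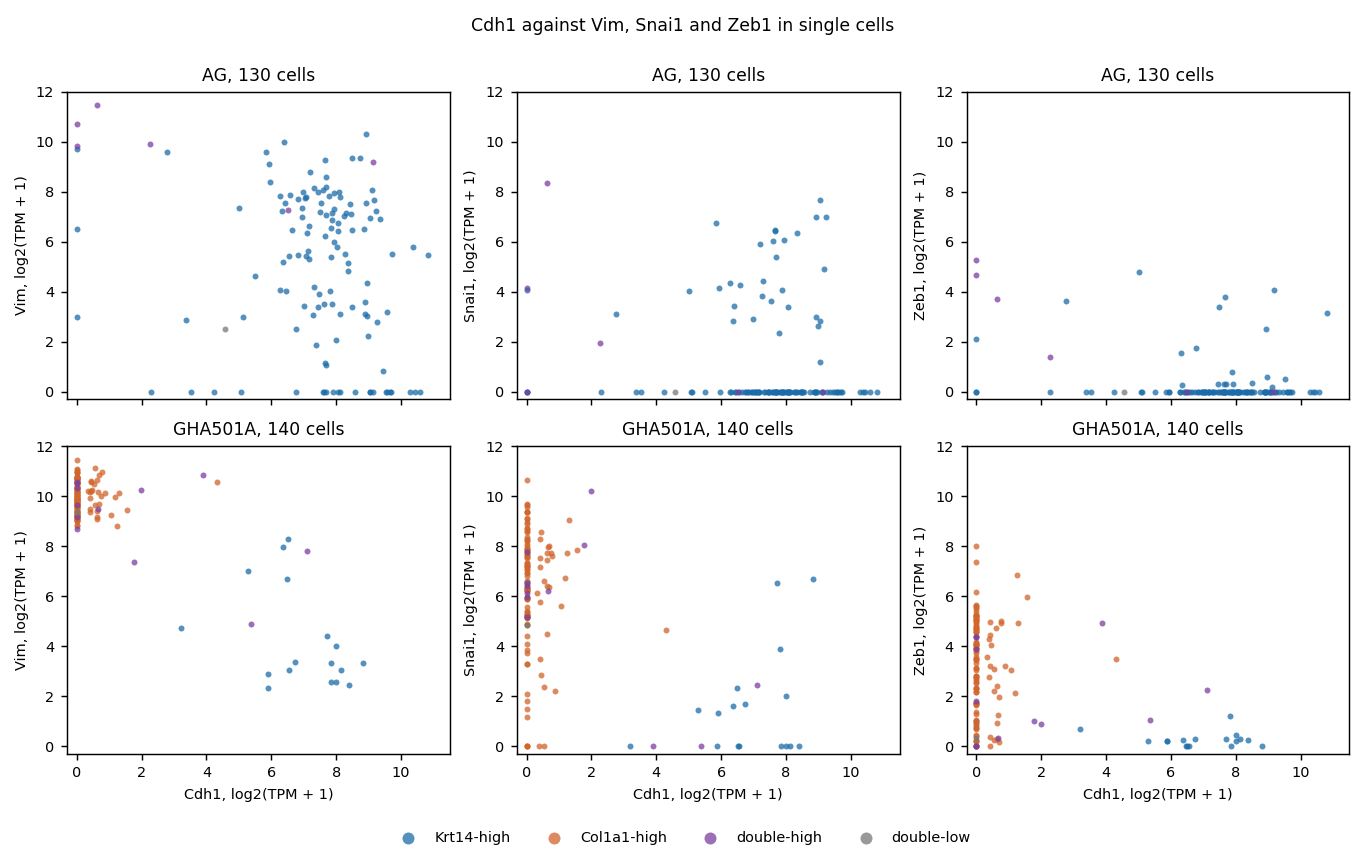
Level of Cdh1 (x axis) against Vim, Snai1 and Zeb1 (y axes), as log2(TPM + 1), in each AG cell (top row) and each GHA501A cell (bottom row), coloured by class. In GHA501A the Col1a1-high cells lie at low Cdh1 and high Vim and the Krt14-high cells at the opposite corner, whereas in AG 77.7% of cells have both Cdh1 and Vim over 1 TPM.

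The genes most like a member were taken by the highest mean rho over the 4 sets, for the 5 members detected in at least 20% of the cells of every set. Vim was most like Lox (0.58), a collagen cross-linking enzyme, Col1a1 (0.55) and Pcolce (0.51), which encodes an enhancer of procollagen processing. Snai1 was most like Wisp2 (0.36), Pcolce (0.33) and Loxl1 (0.33), and Zeb2 most like Fstl1 (0.39), Col1a1 (0.36) and Gigyf1 (0.35). The likeness was weaker for Snai2, led by Aknad1 (0.27), Rnd3 (0.27) and Lpcat2 (0.25), and for Twist1, led by Cep170 (0.26), Birc6 (0.25) and Bud13 (0.24).

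Other genes of the junction and of EMT were counted in the comparison of the series over all cells. Of 26 genes listed as epithelial and opposed to EMT 25 were tested, with 13 higher and 4 lower in AG and a median log2 difference of 1.75, against -0.01 over all genes tested. Among them the Ets factor Ehf (3.82 ± 0.40) and the claudin gene Cldn4 (3.17 ± 0.33) were higher, and the Ets factor Elf3 (-4.78 ± 0.33) was lower. Of 22 mesenchymal genes 21 were tested, with 1 higher, Tgfbi (1.40 ± 0.33), and 8 lower, led by Spp1 (-10.73 ± 0.33) and the homeobox gene Prrx1 (-3.44 ± 0.33), and a median of -1.06. Spp1 exceeded 1 TPM in 1.52% and 3.12% of the cells of the AG sets and in all GHA501A cells, a pattern close to that of Ctnnb1 given above.

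Of 14 adherens junction partners 13 were tested, and Jup (3.10 ± 0.38), which encodes plakoglobin, and Nectin1 (2.49 ± 0.36) were higher in AG, whereas Ctnnb1 (-6.32 ± 0.33) and Pkp4 (-3.18 ± 0.34) were lower. Of 20 other cadherins 16 were in the table and 11 were tested. The atypical cadherin Fat1 (2.29 ± 0.40) and Cdh6 (3.69 ± 0.57), the latter detected in 4.55% and 15.6% of the cells of the AG sets, were higher, and the protocadherin Pcdh19 (-1.78 ± 0.37) was lower. Of the marker lists, 8 of 11 keratinocyte genes tested were higher, led by Krt15 (4.12 ± 0.45) and Dsg3 (4.00 ± 0.83), and 5 of 7 fibroblast genes lower, led by Col1a1 (-6.70 ± 0.33) and Col6a1 (-5.95 ± 0.33). Mitf (-2.71 ± 0.39), Lyz2 (-2.42 ± 0.58) and Cnn1 (-1.93 ± 0.37) were lower, and S100b (2.83 ± 0.57) and Sox2 (3.06 ± 0.48) higher, in the other lists. Mitf and Pcdh19 exceeded 1 TPM in 0% of the cells of both AG sets. Cnn1 did so in 1.52% and 4.69% and S100b in 9.09% and 7.81% of untreated and treated AG cells. These differences therefore rest on few cells or on values near 0. All named differences had adjusted p between 0.00181 and 0.0410 by limma.

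Among Krt14-high cells, 6 epithelial genes were lower in AG than in GHA501A and 0 higher, among them Elf3 (-7.56 ± 0.49). The smooth muscle actin gene Acta2 (5.89 ± 0.49) was higher and Spp1 (-8.25 ± 0.58) lower among the mesenchymal genes. Of the junction partners Ctnnb1 and Nectin4 (-3.74 ± 0.55) were among 3 lower genes. The genes named here had adjusted p between 0.0244 and 0.0357 by limma. The keratinocyte marker Itgb4 was called too, but it is listed at 0 in every cell of both AG sets, against set means of 0.843 and 5.18 TPM in untreated and treated GHA501A cells, so no fold is given. In the comparisons of treatments and of the classes of GHA501A, 0 genes of these lists were called. Within GHA501A the median difference between Krt14-high and Col1a1-high cells was 4.07 on the log2 scale for 25 epithelial genes and -1.78 for 21 mesenchymal genes, against -0.17 over all genes tested.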

How the data were processed

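Single cells were captured on a microfluidic chip, and their full-length cDNA was sequenced. Capture sites were imaged and doublets left out per the labels, and no doublet caller was run. The authors used FastQC and cutadapt, aligned reads to GRCm38 with TopHat, dropped multiply-mapped reads, counted with featureCounts and deposited TPM. The deposited TPM table has 294 columns, of which 16 without a label were not used and 8 with conflicting labels were left out. No columns were identical.

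TPM values were averaged over the cells of each of 4 library sets, or of a class within a set (at least 5 cells), and log2(mean + 1) was fitted with limma 3.58.1 (R 4.3.3; lmFit and eBayes, two-sided, Benjamini-Hochberg adjusted over 12355 genes) in 5 comparisons. Nothing says that the sets came from separate animals, so p-values measure the spread between sets, which may be technical. Because these values are not counts, no count model was used, and the log2(mean TPM + 1) scale understates changes of low genes. Treatment, series or set was the block. Detection was TPM over 1. The fit was tested on simulated data. Tables were made in Python 3.11.15 (pandas 2.3.3, numpy 2.4.6, scipy 1.17.1), figures with matplotlib 3.10.9, and positions come from GENCODE M21.

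The 10 genes and the other lists were chosen with earlier results of these data known. All 10 are named, with up to 2 genes in each direction of each other list with the largest change past the thresholds (some of which are not reported here), the class genes, and 3 genes of highest mean rho for each member detected in at least 20% of the cells of every set. Catenins beyond these were named after their values were seen. Alternatives were the pseudocount, averaging, gene filter, block, treatment of the 8 cells, class limits and genes, detection limit and leaving out each set.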

Additional observations from a re-analysis of the deposited data

How the results depend on the processing

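Under the settings tried, the 10 genes kept their direction in most fits, and the exceptions follow. Where values changed, the cause was not tested. For treated against untreated cells of all classes, Zeb1 turned to -0.074 with a pseudocount of 0.1 and to -0.31 with log2 values averaged over cells, and Snai1 to -0.26 with that averaging and to -0.054 with the 8 conflicting cells placed by treatment label. Among Krt14-high cells, Zeb1 turned to 0.21, 0.059 and 0.13 with a pseudocount of 0.1, averaged log2 values and classes by Krt5 and Col1a2, and Zeb2 to -0.086 with the 8 cells placed by library name. Between the classes of GHA501A, Cdh11 turned to 0.061 with classes by Krt5 and Col1a2. Between the series over all cells, averaged log2 values gave 5539 calls and 8 of the 10 genes. Between the series among Krt14-high cells, the calls were 680 with averaged log2 values, 0 without a filter, 0 at a class limit of 30 TPM and 1941 without the block, against 1265, and 1, 2 and 1 of the 10 genes were called with a pseudocount of 0.1, the 10% filter and no block. There Snai1, Twist1 and Zeb1 turned to -0.65, -0.23 and -0.0072 with averaged log2 values, and Snai1 and Zeb1 to -0.032 and -0.025 at a class limit of 300 TPM. The replicate block moved the genes at an unadjusted p under 0.05 from 459 to 53 and from 247 to 54 in the 2 comparisons of treatment when it was dropped. Replicate numbers in the labels are cell numbers and pair no samples. With detection at TPM over 0, 6 pairs in place of 10 lay above the product in every set read, and the mean ratio was -0.11 for Cdh1 with Zeb1 and -0.14 for Cdh1 with Snai1, against -0.85 and -0.28 at TPM over 1 and -1.99 and -1.27 at TPM over 10.

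Leaving out 1 library set at a time, without the block and with a lone set assumed to vary like the others, gave 1023 to 2229 calls and 1 to 4 of the 10 genes between the series over all cells (Cdh2 -1.23 to 0.023), and 0 to 2698 calls and 0 to 1 of the 10 among Krt14-high cells (Snai1 -1.47 to 2.34, Twist1 -0.54 to 2.02). For treatment over all cells the ranges were -1.81 to 2.79 for Cdh1, -1.60 to 0.86 for Cdh11, -1.09 to 1.39 for Vim, -1.91 to 2.05 for Snai1, -0.92 to 0.12 for Snai2, -1.38 to 0.49 for Twist1, -1.55 to 1.57 for Zeb1 and -0.97 to 0.0092 for Zeb2. Among Krt14-high cells they were -0.52 to 1.07 for Cdh1, -0.017 to 0.045 for Cdh2, -0.66 to 2.03 for Cdh3, -1.81 to 0.72 for Cdh11, -0.85 to 0.24 for Snai2, -0.47 to 0.40 for Zeb1 and -0.73 to 1.12 for Zeb2. Between the classes they were -0.54 to 0.081 for Snai2 and -0.44 to 0.029 for Cdh11. Pairs below and above the product in every set read numbered 3 to 8 and 6 to 13. No call between treatments does not show that a change is absent.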
